A study of Mus musculus with 12 samples.

Results

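The ADAMTS proteases (a disintegrin and metalloproteinase with thrombospondin motifs) were followed in C22 cells, a mouse club cell line. The 10 genes Adamts1, Adamts2, Adamts4, Adamts5, Adamts6, Adamts7, Adamts9, Adamts10, Adamts12 and Adamts15 were taken by their symbols from 23282 gene rows and were selected on the scaled counts of these same libraries. Their levels and the fit's values for them are therefore a description and not independent evidence. All 10 were listed in the files, 8 passed the filter on low counts among 12425 genes that did, and Adamts12 and Adamts15 did not. The mouse has 19 ADAMTS proteases in all, and of the 9 outside this selection only Adamts16 passed the filter.

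C22 is a cloned line from H-2Kb-tsA58 mice, which carry a temperature-sensitive large T antigen, so that the cells divide at a permissive temperature with interferon-γ and differentiate without it. All 4 groups were differentiated C22 cells starved of serum. They were negative control cells without (NC) or with 24 h of 20 ng/ml TGF-β1 (NC + TGF-β1), and cells given small interfering RNA against Pdcd5 without (siPDCD5) or with the same TGF-β1 treatment (siPDCD5 + TGF-β1). Each group had 3 libraries of 3′ end sequencing, with 12809857 to 17714828 counts per library. The labels do not say whether the 3 libraries came from separate cultures, so the p-values measure the spread between these libraries, which may be technical.

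Pdcd5, the targeted gene, was at 65.1 to 73.5 CPM, counts scaled to a library of fixed size, in the 6 negative control libraries and at 20.0 to 26.3 CPM in the 6 knockdown libraries. NC + TGF-β1 replicate 2 and siPDCD5 replicate 1 stood apart from the other libraries of their groups: the chi-square per gene was 35.0 and 62.7 in the pairs with the first and 34.6 and 26.8 in those with the second, against 4.40 to 12.1 in the other pairs. No pair held identical values. The club cell label was not borne out by its defining markers. Scgb1a1, Scgb3a2, Cyp2f2, Cldn10 and Nkx2-1, 5 of 7 club cell markers, had at most 3 counts in every library, and so did the epithelial genes Epcam and Cldn4. The summed club cell list, almost all of it Aldh1a1, ran from 547 to 556 CPM in NC and 231 to 245 after TGF-β1, and from 292 to 326 in siPDCD5 and 155 to 165 after TGF-β1. Of the 7 fibroblast markers, Lum and Tcf21 were that low, and the summed level of the list ran from 2748 to 2917 CPM in NC and 5935 to 6595 after TGF-β1, and from 1863 to 2330 in siPDCD5 and 4515 to 4704 after TGF-β1, mostly from Col1a1. Markers of alveolar type 2, ciliated, endothelial and leukocyte cells summed to at most 26.7 CPM per list. The epithelial list, mostly Krt18 and Krt8, ran from 547 to 698 CPM without TGF-β1 and from 1239.7 to 1676 with it. The part of these shifts in the ADAMTS results was not tested, and in such bulk RNA fewer cells of a type and less RNA per cell cannot be told apart.

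ADAMTS proteases are secreted zinc metalloproteases that are made as inactive precursors and cut by furin-like convertases. Adamts1, Adamts4, Adamts5, Adamts9 and Adamts15 belong to the proteoglycanases, which cleave the large proteoglycans versican and aggrecan. Adamts2 is a procollagen N-proteinase, which trims fibrillar procollagens so that they can assemble. Adamts7 and Adamts12 are paired relatives known for cleaving cartilage oligomeric matrix protein, and Adamts6 and Adamts10 are paired relatives tied to fibrillin microfibrils.

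Promoters were looked up in a RefSeq table (GRCm38.p6, 250 bases before to 50 after each gene's start), which held 4 of the 10 genes: Adamts1, Adamts2, Adamts9 and Adamts12. The window of Adamts1 is shown because its fold change was the largest fall in siPDCD5 against NC among the ADAMTS genes. Those of Adamts9 and Adamts2 are shown because TGF-β1 moved them in opposite directions. They lie at chr16:85803064-85803363 on the minus strand for Adamts1, chr6:92943485-92943784 on the minus strand for Adamts9 and chr11:50601835-50602134 on the plus strand for Adamts2. Each runs 5′ to 3′ along its gene, and capitals mark a match to TATAAA.
Adamts1: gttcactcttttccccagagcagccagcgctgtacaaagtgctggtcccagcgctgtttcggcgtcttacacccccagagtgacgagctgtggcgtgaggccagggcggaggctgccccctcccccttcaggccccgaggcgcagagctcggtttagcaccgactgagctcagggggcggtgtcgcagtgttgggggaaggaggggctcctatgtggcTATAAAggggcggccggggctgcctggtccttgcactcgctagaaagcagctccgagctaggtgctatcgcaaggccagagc
Adamts9: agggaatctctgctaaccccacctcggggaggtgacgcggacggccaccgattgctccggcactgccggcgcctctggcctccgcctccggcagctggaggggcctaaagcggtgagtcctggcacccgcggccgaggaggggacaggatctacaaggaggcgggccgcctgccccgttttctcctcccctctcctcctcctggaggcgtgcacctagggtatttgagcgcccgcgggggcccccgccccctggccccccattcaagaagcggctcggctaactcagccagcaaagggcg
Adamts2: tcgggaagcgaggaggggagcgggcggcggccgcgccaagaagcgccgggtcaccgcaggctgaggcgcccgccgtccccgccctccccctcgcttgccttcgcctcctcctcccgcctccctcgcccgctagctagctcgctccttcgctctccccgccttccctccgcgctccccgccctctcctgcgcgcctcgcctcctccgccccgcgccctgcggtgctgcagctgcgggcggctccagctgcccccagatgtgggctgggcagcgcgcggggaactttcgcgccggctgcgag
Motifs were searched on both strands of each window. The TATA box, TATAAA, was held by Adamts1 with its first base at position -32 from the start, and by 13.6% of all 32851 promoters of the table. The SMAD element, CAGAC, was held by 49.6% of the table. Its palindrome, GTCTAGAC, was held by 0.213%. The AP-1 site, TGANTCA, was held by 7.81%. None of these motifs contains another, and beside the match in Adamts1 the 4 windows held none of them. The windows were rich in G and C, with 64.7% in Adamts1, 77.3% in Adamts2, 70.0% in Adamts9 and 62.0% in Adamts12, against a median of 52.7% over the table.

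TGF-β1 split the family in NC cells. Of the 8 ADAMTS genes tested, Adamts2, Adamts4 and Adamts7 rose and Adamts1, Adamts5 and Adamts9 fell at a Benjamini-Hochberg adjusted p under 0.05 in edgeR's quasi-likelihood test, where 8.57% of all genes tested rose and 6.77% fell. The 3 libraries of each group did not overlap for 7 of the 8 genes, against 29.6% of all genes. The proteoglycanases lay on both sides, with Adamts4 above and Adamts1, Adamts5 and Adamts9 below. In siPDCD5 cells the same 3 genes rose, where 8.50% of all genes rose. Adamts5 and Adamts9 fell there, where 7.61% of all genes fell, and 5 of the 8 genes did not overlap, against 36.1% of all genes.

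**Figure D1:**
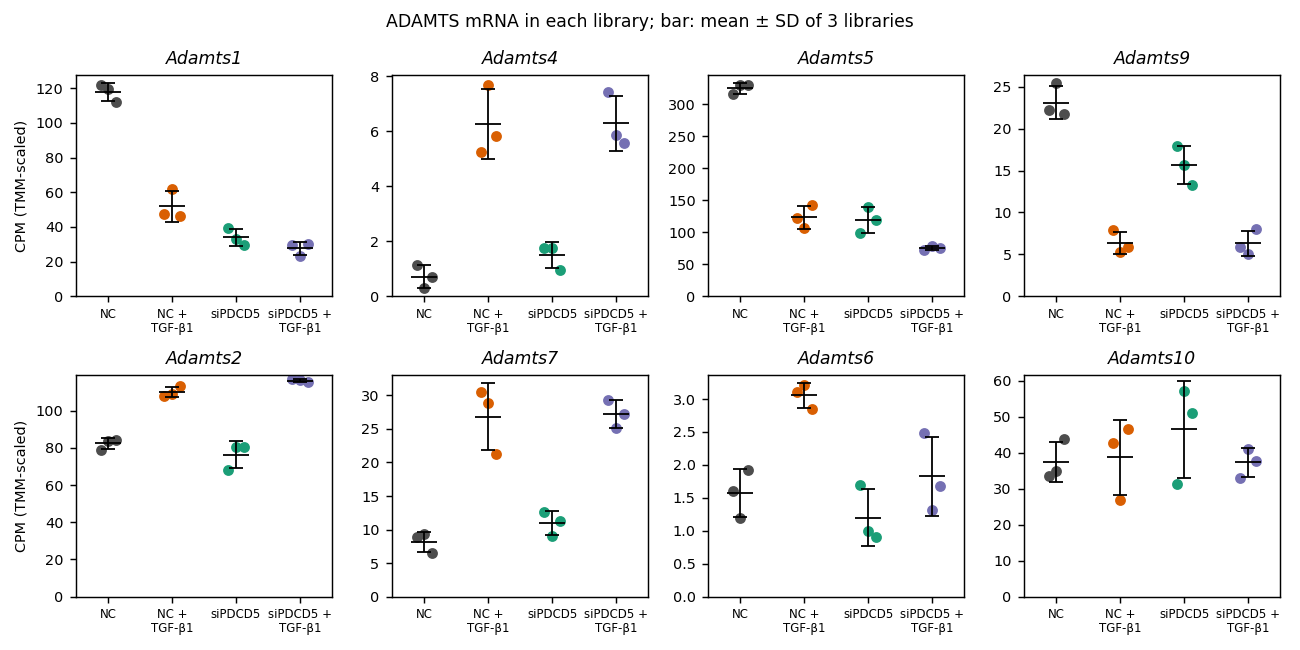
CPM (vertical axis, from 0, scaled by TMM) of 8 ADAMTS genes in each of the 12 libraries, by group, with points for libraries and bars for the mean ± SD of 3. Adamts1 and Adamts5 are highest in the 3 NC libraries, Adamts4 and Adamts7 are higher in the 6 TGF-β1 libraries than in the 6 without it, and Adamts10 overlaps between all groups.

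Adamts5, the main aggrecanase of mouse cartilage, had the highest mean CPM of the family, 160 over the 12 libraries. CPM from 3′ ends counts transcripts and is not divided by length. The NC libraries held 315, 330 and 329 CPM of Adamts5, and the NC + TGF-β1 libraries 122, 106 and 142 CPM. The siPDCD5 libraries held 98.4, 139 and 119 CPM, and the siPDCD5 + TGF-β1 libraries 72.1, 77.8 and 75.2 CPM. The group means ran from 325 ± 8.28 CPM (SD, n = 3) in NC through 123 ± 18.2 in NC + TGF-β1 and 119 ± 20.2 in siPDCD5 to 75.0 ± 2.81 in siPDCD5 + TGF-β1. The middle groups overlapped, all 6 of their libraries lay under the lowest NC library, and all 6 lay above the highest siPDCD5 + TGF-β1 library. The log2 fold change with TGF-β1 was -1.40 ± 0.125 (SE) in NC cells (edgeR adjusted p = 2.06e-06) and -0.66 ± 0.125 in siPDCD5 cells (edgeR adjusted p = 0.00189).

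Adamts1, a versican-cleaving protease, lies next to Adamts5 on chromosome 16. In GRCm38, Adamts1 (ENSMUSG00000022893.14) spans 85793827 to 85803113 and Adamts5 (ENSMUSG00000022894.6) 85856173 to 85901828, both on the minus strand, 53059 bases apart with no other coding gene between them. The NC libraries held 122, 120 and 112 CPM of Adamts1, and the NC + TGF-β1 libraries 47.3, 62.0 and 46.1 CPM. The siPDCD5 libraries held 39.1, 33.2 and 29.6 CPM, and the siPDCD5 + TGF-β1 libraries 29.3, 23.2 and 30.2 CPM. The order of the group means was NC (118 ± 5.12), then NC + TGF-β1 (51.8 ± 8.89), then siPDCD5 (34.0 ± 4.83) and last siPDCD5 + TGF-β1 (27.6 ± 3.82). The last pair overlapped, and the other neighbours in this order did not. With TGF-β1 the log2 fold change was -1.19 ± 0.138 in NC cells (edgeR adjusted p = 2.71e-05) and -0.30 ± 0.142 in siPDCD5 cells, where the test was not passed (edgeR adjusted p = 0.186, 95% interval -0.60 to 0.01).

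Adamts9, which cleaves versican and is needed in development, followed TGF-β1 in both backgrounds. It stood at 22.2, 25.4 and 21.7 CPM in NC and at 7.88, 5.31 and 5.92 CPM in NC + TGF-β1. In siPDCD5 it stood at 17.9, 15.7 and 13.3 CPM, and in siPDCD5 + TGF-β1 at 5.91, 5.09 and 8.0 CPM. Every TGF-β1 library was below every library without it. The log2 fold change was -1.86 ± 0.191 in NC cells (edgeR adjusted p = 7.98e-06) and -1.30 ± 0.190 in siPDCD5 cells (edgeR adjusted p = 2.40e-04).

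Adamts4, a second aggrecanase, went the other way from a low level. NC libraries held 15, 4 and 9 counts, or 1.14, 0.297 and 0.691 CPM, and NC + TGF-β1 libraries 66, 103 and 80 counts, or 5.25, 7.70 and 5.85 CPM. The siPDCD5 libraries held 1.77, 1.76 and 0.966 CPM and the siPDCD5 + TGF-β1 libraries 7.45, 5.86 and 5.58 CPM. All 6 TGF-β1 libraries were above all 6 without it, and the lowest NC library, with 4 counts, was just above the limit of 3 counts that a count of 0 allows. The log2 fold change was 3.13 ± 0.363 in NC cells (edgeR adjusted p = 2.59e-05) and 2.06 ± 0.316 in siPDCD5 cells (edgeR adjusted p = 3.60e-04).

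Adamts7 rose with Adamts4. It stood at 8.82, 9.27 and 6.45 CPM in NC and at 30.5, 28.9 and 21.2 CPM in NC + TGF-β1. In siPDCD5 it stood at 12.6, 9.10 and 11.3 CPM, and in siPDCD5 + TGF-β1 at 29.3, 25.1 and 27.3 CPM. The TGF-β1 libraries of both backgrounds overlapped, and all were above those without TGF-β1. The log2 fold change was 1.71 ± 0.179 in NC cells (edgeR adjusted p = 9.58e-06) and 1.32 ± 0.173 in siPDCD5 cells (edgeR adjusted p = 8.98e-05). The last 6045 bases of Adamts7 on chromosome 9 lie within Tbc1d2b on the other strand, and the counting is not stated to use strand, so reads of the pair cannot be told apart without strand. The row of Tbc1d2b itself ran from 14.8 to 21.5 CPM over the 12 libraries, with a log2 fold change of 0.07 with TGF-β1 in NC cells.

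Adamts2, the procollagen N-proteinase of the set, had the second highest mean CPM of the family over the 12 libraries, 96.3, and the smallest log2 fold change with TGF-β1 in NC cells among the ADAMTS genes that passed there. It stood at 79.1, 83.9 and 84.5 CPM in NC and at 108, 109 and 113 CPM in NC + TGF-β1. In siPDCD5 it stood at 68.0, 80.6 and 80.5 CPM, and in siPDCD5 + TGF-β1 at 117, 116 and 116 CPM. The groups with TGF-β1 lay above those without, by 1.33-fold in NC cells (log2 fold change 0.42 ± 0.086, edgeR adjusted p = 0.00352) and 1.52-fold in siPDCD5 cells (0.61 ± 0.086, edgeR adjusted p = 1.77e-04).

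Adamts6 and Adamts10 did not pass in any comparison of the fit over all 12 libraries. Adamts6 was at 1.60, 1.19 and 1.92 CPM in NC and at 3.11, 3.21 and 2.85 CPM in NC + TGF-β1, with all 3 treated libraries above the others, a log2 fold change of 0.96 ± 0.322 and an edgeR adjusted p of 0.0602. It passed where at least 10 counts were asked of every library (edgeR adjusted p = 0.044) and without siPDCD5 replicate 1 (edgeR adjusted p = 0.045). Its siPDCD5 libraries held 1.70, 0.992 and 0.901 CPM and its siPDCD5 + TGF-β1 libraries 2.48, 1.31 and 1.68 CPM, which overlapped. Adamts10 held 26.9 to 57.1 CPM over the 12 libraries, and the 95% interval of its log2 fold change with TGF-β1 was -0.42 to 0.52 in NC cells and -0.79 to 0.15 in siPDCD5 cells. Its lowest values within NC + TGF-β1 (26.9 CPM) and within siPDCD5 (31.3 CPM) fell in the 2 libraries that stood apart. With these libraries left out, a setting chosen after seeing the data, Adamts10 had a log2 fold change of -0.54 with TGF-β1 in siPDCD5 cells (edgeR adjusted p = 8.64e-04). In that setting 24.9% of all genes were called, and it was the only 1 of 21 other settings that called Adamts10 there. In the fit over all 12 libraries the edgeR adjusted p was 0.362.

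Adamts12 had 1 count in each of NC + TGF-β1 replicates 1 and 3 and none in the other 10 libraries. Adamts15 had 0 to 7 counts per library, the 7 in NC + TGF-β1 replicate 3. In the deepest and the shallowest scaled library 3 counts stand for 0.165 and 0.239 CPM, the level under which a gene was not detectable at this depth for counting error alone.

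**Figure D2:**
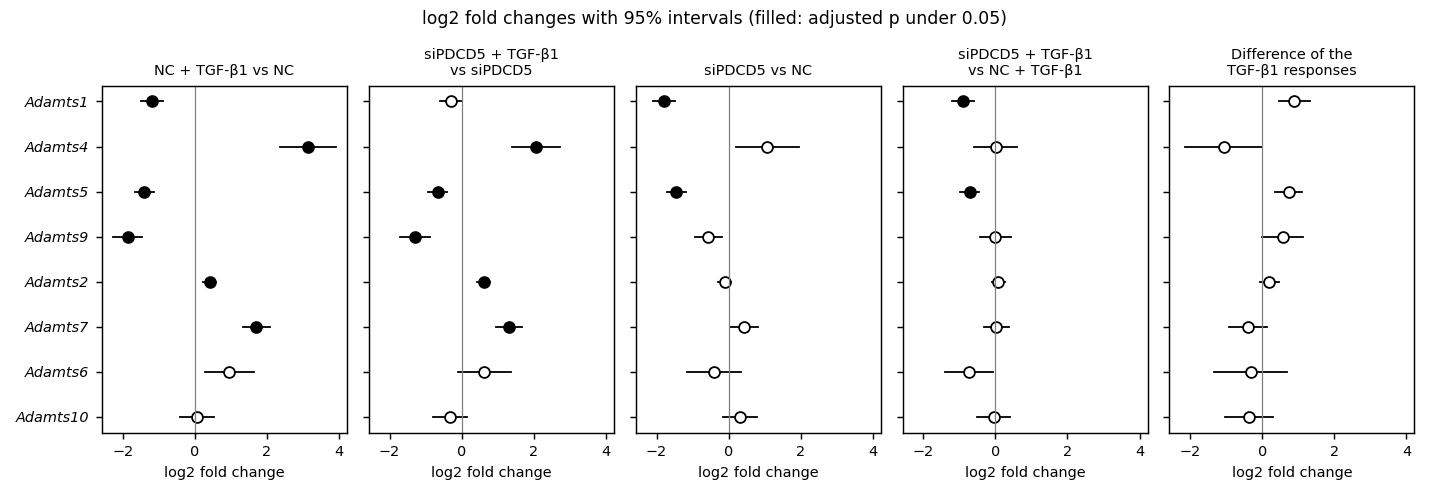
log2 fold changes (horizontal axis) of 8 ADAMTS genes from edgeR, 1 panel per comparison, with lines for 95% intervals and filled points for an adjusted p under 0.05. With TGF-β1, 6 points are filled in NC cells and 5 in siPDCD5 cells, and in both knockdown panels the filled points are Adamts1 and Adamts5, each below 0.

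In knockdown cells without TGF-β1, the neighbours Adamts1 and Adamts5 fell, and no other ADAMTS gene passed the threshold. Adamts1 was 3.47-fold lower in siPDCD5 than in NC (log2 fold change -1.80 ± 0.141, edgeR adjusted p = 1.23e-05) and Adamts5 2.74-fold lower (-1.45 ± 0.125, edgeR adjusted p = 2.12e-05). These 2 of 8 genes compare with 2.54% of all genes that fell and 0.901% that rose, and no ADAMTS gene rose. The groups did not overlap for 3 of the 8, against 23.1% of all genes, the other gene being Adamts9 (-0.56 ± 0.177, edgeR adjusted p = 0.111). Adamts9 passed in DESeq2's Wald test (-0.58, DESeq2 adjusted p = 0.0497) and in edgeR's without NC + TGF-β1 replicate 2 (edgeR adjusted p = 0.0486). Adamts2 differed by -0.11 (95% interval -0.29 to 0.07), Adamts6 by -0.40 (-1.15 to 0.34) and Adamts10 by 0.32 (-0.15 to 0.79). The intervals of Adamts7 (0.42, from 0.03 to 0.81) and Adamts4 (1.08, from 0.20 to 1.95) lay above 0, but their libraries overlapped and their adjusted p did not pass. Without the 2 libraries that stood apart, Adamts9 fell (-0.67, edgeR adjusted p = 0.00856) and Adamts10 rose (0.53, edgeR adjusted p = 0.0035) besides the first 2, among 9.09% of all genes called.

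In cells given TGF-β1, Adamts1 and Adamts5 were again the ADAMTS genes lowered by the knockdown. Adamts1 was 1.87-fold lower in siPDCD5 + TGF-β1 than in NC + TGF-β1 (-0.91 ± 0.142, edgeR adjusted p = 0.00415) and Adamts5 1.64-fold lower (-0.72 ± 0.125, edgeR adjusted p = 0.00925). Of all genes 1.22% fell and 0.330% rose, and no ADAMTS gene rose. The groups did not overlap for 4 of the 8 genes, against 18.9% of all genes, which included Adamts6 (-0.73 ± 0.314, edgeR adjusted p = 0.315) and Adamts2 (0.08 ± 0.085, edgeR adjusted p = 0.758). Fitted on the 6 libraries of these groups alone, neither gene passed, with edgeR adjusted p of 0.0576 for Adamts1 and 0.0512 for Adamts5. Adamts5 also did not pass without siPDCD5 + TGF-β1 replicate 1 (edgeR adjusted p = 0.0647) or replicate 3 (edgeR adjusted p = 0.0573). Adamts4, Adamts7 and Adamts9 had log2 fold changes of 0.01, 0.02 and -0.001, with 95% intervals of -0.59 to 0.61, -0.33 to 0.38 and -0.44 to 0.43. The knockdown and TGF-β1 comparisons share control libraries, so their values for a gene are not independent of each other.

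The difference between the TGF-β1 responses of siPDCD5 and NC cells was tested as an interaction. No ADAMTS gene passed, and of all 12425 genes 0% did. Before adjustment, 3 of the 8 genes stood under the threshold of 0.05, against 5.13% of all genes. They were Adamts1 (0.89 ± 0.197, edgeR adjusted p = 0.558), Adamts5 (0.74 ± 0.175, edgeR adjusted p = 0.736) and Adamts4 (-1.07 ± 0.497, edgeR adjusted p = 0.951). The value is the log2 fold change in siPDCD5 cells minus that in NC cells, so a positive one is a smaller fall for Adamts1 and Adamts5. DESeq2's Wald test called Adamts1 (0.90, DESeq2 adjusted p = 0.0377) among 13 genes. Without the 2 libraries that stood apart, Adamts1 (1.16, edgeR adjusted p = 4.29e-04), Adamts5 (0.53, edgeR adjusted p = 0.0267) and Adamts10 (-0.79, edgeR adjusted p = 0.0216) passed, among 1.59% of all genes. Adamts9 (0.56, 95% interval -0.01 to 1.14), Adamts7 (-0.40, -0.93 to 0.13), Adamts2 (0.19, -0.07 to 0.45) and Adamts6 (-0.33, -1.34 to 0.68) had intervals that span 0.

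The make-up of the family by CPM shifted from Adamts5 towards Adamts2. The 10 genes summed to 596 ± 11.2 CPM in NC (SD, n = 3) and 367 ± 17.7 after TGF-β1, and to 305 ± 33.2 in siPDCD5 and 298 ± 3.11 after TGF-β1. The NC libraries were apart from all others, and the 2 knockdown groups overlapped. Adamts5 held 54.5 ± 0.407% of the sum in NC and 33.5 ± 3.32% after TGF-β1, and 38.7 ± 2.42% in siPDCD5 and 25.2 ± 1.00% after TGF-β1. The share of Adamts2 was 13.8 ± 0.265%, 30.1 ± 1.04%, 25.1 ± 1.20% and 39.0 ± 0.584% in the same order. A share also rises when the sum falls. In siPDCD5 against NC, Adamts2 itself was not raised (log2 fold change -0.11, edgeR adjusted p = 0.604), while Adamts1 and Adamts5 fell. The 5 proteoglycanases together held 78.3%, 51.2%, 55.8% and 38.7%, again in that order. The ratio of Adamts5 to Adamts2 CPM, 3.94 ± 0.046 in NC, was 1.12 ± 0.142 after TGF-β1, and in knockdown cells 1.55 ± 0.152 without and 0.645 ± 0.026 with TGF-β1.

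**Figure D3:**
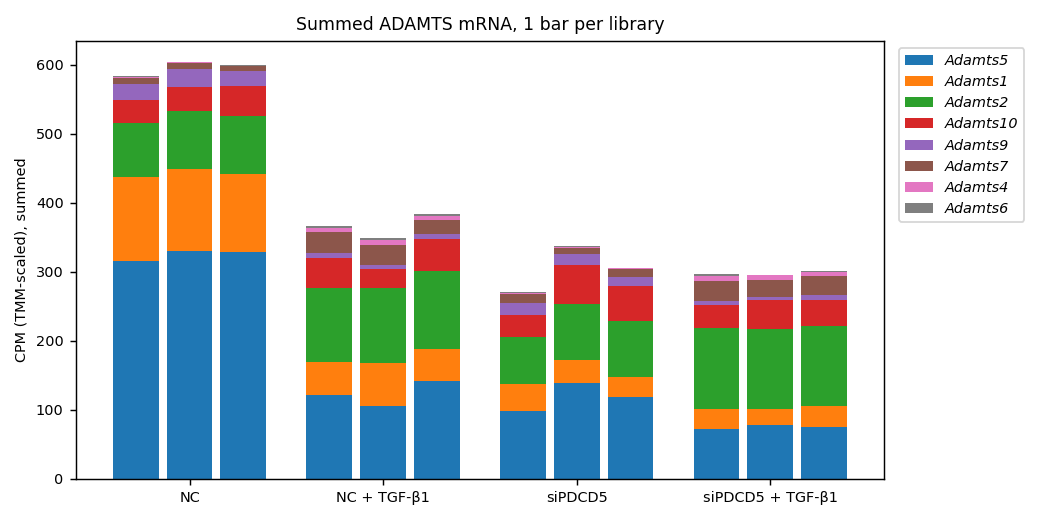
Summed CPM (vertical axis, from 0) of 8 ADAMTS genes in each library, 1 bar per library, stacked by gene; Adamts12 and Adamts15 are too low to draw. The NC bars reach 583 to 604 CPM and all others stay under 385 CPM, and the Adamts5 segment is the one that shrinks most.

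Outside the selection, Adamts16, a relative of Adamts18 with few known substrates, followed Adamts4 upward. It had 2, 0 and 0 counts in NC and 28, 45 and 14 after TGF-β1, and 2, 4 and 2 counts in siPDCD5 and 25, 29 and 36 after TGF-β1. On pooled counts NC + TGF-β1 was 43.5-fold above NC, with a 95% counting interval of 11.7 to 365, and siPDCD5 + TGF-β1 was 12.4-fold above siPDCD5, with an interval of 6.04 to 29.7. These intervals cover counting error only, and both NC counts lay in replicate 1. Adamts16 passed edgeR's test in both backgrounds, but it had passed the filter through its TGF-β1 libraries alone. A gene kept in that way is likely to look raised there, so these calls are a description and no independent support. Its fitted log2 fold change in NC cells, 5.22, was 7.97 without NC replicate 1 and 4.70 or more with any other library left out. Adamts16 had more counts in all, 187, than Adamts12 with 2 or Adamts15 with 18. Of the others, Adamts14 held 70 counts over the 12 libraries, Adamts13 18, Adamts8 6, Adamts3 4 and Adamts18 1, and Adamts17, Adamts19 and Adamts20 held none.

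The substrates of the proteases moved with TGF-β1. Vcan, which encodes versican, was the only 1 of 4 hyalectans that passed the filter. It stood at 127, 128 and 129 CPM in NC and at 368, 312 and 373 CPM in NC + TGF-β1. In siPDCD5 it stood at 116, 151 and 122 CPM, and in siPDCD5 + TGF-β1 at 336, 332 and 300 CPM. Vcan rose in both backgrounds (1.46 and 1.31 log2) and had knockdown values of 0.02 and -0.12. Of the 5 fibrillar procollagen genes, substrates of Adamts2 and its kin, 4 rose with TGF-β1 in each background, where 8.57% and 8.50% of all genes rose, and Col2a1 did not pass. Col1a2 changed most, by 2.78 in NC and 1.72 in siPDCD5 cells, followed by Col5a1 (1.55 and 1.5), Col1a1 (1.17 and 1.22) and Col3a1 (0.52 and 0.65). Col1a2 started from a low level, with 47 to 48 counts per NC library and a mean of 3.58 CPM, against 2719 CPM for Col1a1. With the knockdown alone Col1a2 rose (1.74) and Col1a1 (-0.47) and Col3a1 (-0.52) fell, and in TGF-β1 cells Col1a1 fell (-0.43, edgeR adjusted p = 0.0455), a call lost under 13 of 21 other settings.

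Of 8 other matrix genes 6 were tested, and 5 rose and 1 fell with TGF-β1 in each background, where 8.57% and 8.50% of all genes rose and 6.77% and 7.61% fell. Bgn, the small proteoglycan biglycan, rose most (2.35 ± 0.404 and 2.90 ± 0.389, SE), but from a low level. It had 8 to 12 counts per library in NC and 4 to 17 in siPDCD5. Fbn1, Thbs1, Ltbp1 and Fn1 rose by 0.38 to 0.82 in NC cells, and the call of Ltbp1 in siPDCD5 cells (0.60) was lost under 7 of 21 other settings. Dcn, the small proteoglycan decorin, fell (-2.08 and -1.80). In the knockdown Dcn was raised (0.59 without and 0.88 with TGF-β1), Thbs1, which encodes thrombospondin-1, was lowered (-0.77 and -0.61), and Fbn1, fibrillin-1, fell without TGF-β1 (-0.85).

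In NC cells given TGF-β1, inhibitors rose and 3 of the 4 tested proteoglycanases fell, where 8.57% of all genes rose and 6.77% fell. Of 7 genes for inhibition and clearance, 5 were tested. Timp1, Timp2, Timp3 and the clearance receptor Lrp1 rose in NC cells, the call of Timp2 lost under 3 of 21 other settings. Timp1 and Timp3 rose in siPDCD5 cells, where 8.50% of all genes rose, and Sdc4 did not pass in either background. Timp3, the main tissue inhibitor of ADAMTS proteases, stood at 1200.2, 1194 and 1270.5 CPM in NC and 3452, 3289 and 3811 after TGF-β1. In siPDCD5 it stood at 729.5, 902 and 821 CPM, and after TGF-β1 at 2619.6, 2439 and 2360.0 CPM. No library overlapped between groups. Its log2 fold change with TGF-β1 was 1.53 in NC and 1.60 in siPDCD5 cells, and with the knockdown -0.58 without and -0.51 with TGF-β1 (edgeR adjusted p = 0.00367 and 0.0162), the latter call lost under 5 of 21 other settings. Timp3 was lower in the knockdown, as were Adamts1 and Adamts5, and Timp1 did not pass (0.25 and -0.10).

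For the lists that follow, 8.57% of all genes rose and 6.77% fell with TGF-β1 in NC cells. In siPDCD5 cells 8.50% rose and 7.61% fell. Of 6 enzymes that mature ADAMTS precursors 4 were tested. Furin, which cuts the precursors, rose with TGF-β1 in both backgrounds (0.83 and 0.72). Pofut2, which adds fucose to thrombospondin repeats, rose in NC cells (0.37, a call lost under 7 of 21 other settings), and B3glct, which extends that sugar, rose in siPDCD5 cells (0.36) and was higher in the knockdown with TGF-β1 (0.42, lost under 12 of 21). Of 6 ADAMTS-like genes, which lack the protease domain, 3 were tested, and Adamtsl1 (-2.03 and -1.90) and Adamtsl4 (-1.09 and -1.05) fell with TGF-β1 in both backgrounds. Of 5 procollagen C-proteinase genes 3 were tested, and Bmp1 (0.60 and 0.46) and the enhancer Pcolce2 (0.84 and 0.77) rose. Of 10 genes for membrane-bound ADAM proteins 7 were tested, and Adam8 rose in both backgrounds (1.89 and 1.36) while Adam17 fell in NC cells (-0.34). None of the ADAMTS-like, procollagen C-proteinase or ADAM genes passed in either knockdown comparison. Of all genes 3.44% passed there without and 1.55% with TGF-β1, so lists this short could hold none by those shares alone. The median log2 fold change over all tested genes was 0.005 with TGF-β1 in NC cells and -0.03 in siPDCD5 cells, against 0.23 and 0.16 for the 8 ADAMTS genes, 1.17 and 1.22 for the procollagens and -1.09 and -1.05 for the ADAMTS-like genes. It was 0.75 and 0.82 for the other matrix genes, 0.61 and 0.17 for inhibition and clearance and 0.32 and 0.30 for maturation. For the C-proteinases it was 0.60 and 0.46 and for the ADAM genes 0.24 and -0.09.

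**Figure D4:**
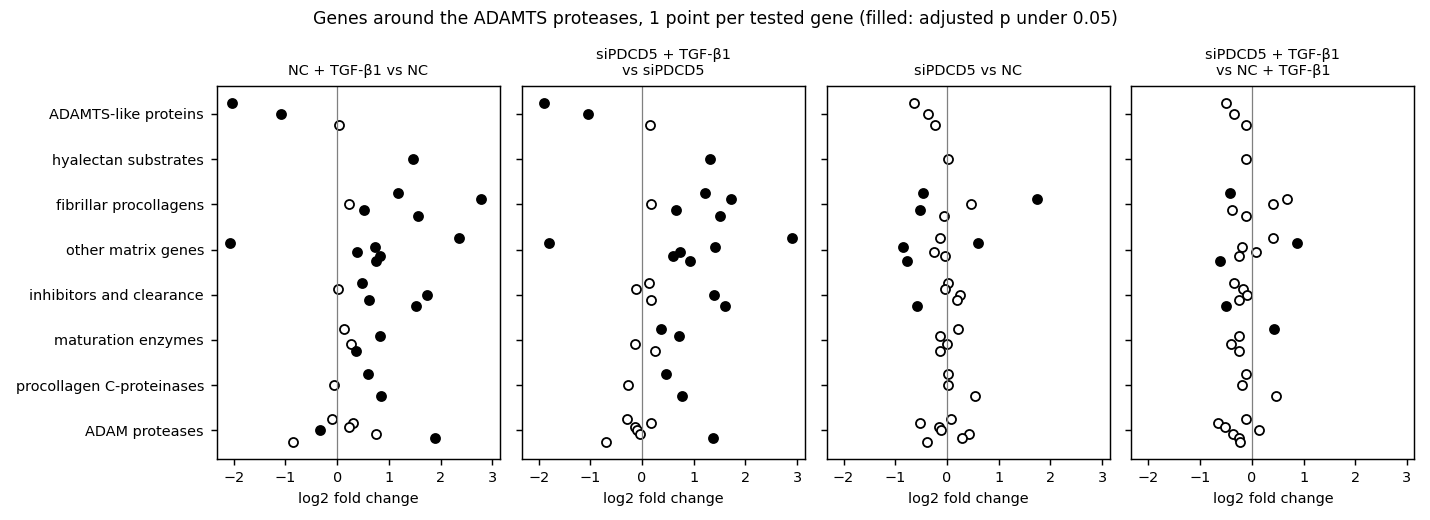
log2 fold changes (horizontal axis) of the tested genes of 8 lists around the ADAMTS proteases, 1 point per gene, in 4 comparisons, with filled points for an edgeR adjusted p under 0.05. With TGF-β1 the procollagens and inhibitors lie at or above 0 in NC cells and 2 of 3 ADAMTS-like genes lie below -1, and few points are filled in the knockdown panels.

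Among the ADAMTS genes with at least 1 CPM in every group, Adamts5 spanned most between group means, 2.11 on the log2 scale. Over the 12 libraries, the 3 genes outside the family with the most similar log2 CPM to Adamts5 among 9122 candidates included Ktn1, the kinesin receptor kinectin (Pearson r = 0.976), and Pdlim2, a PDZ and LIM domain protein (0.967). Adamts1 had r = 0.915 with it. These libraries share the 4 groups, so the values are a description with no test. Pdlim2 held 335 ± 14.5 CPM in NC and 200.1 ± 19.2 after TGF-β1, and 223 ± 22.9 in siPDCD5 and 169 ± 9.92 after TGF-β1, the same order as Adamts5 except that the middle pair, which overlapped in Adamts5, was exchanged.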

How the data were processed

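RNA of 12 libraries of C22 cells (4 groups of 3) was sequenced from 3′ ends (QuantSeq). The authors aligned reads with Bowtie2 to mm10, took read counts from uniquely and multiply aligned reads with Bedtools, and the deposited values are raw counts per gene symbol, without normalization. The annotation and the strand setting are not given in the sources used here, and multiple alignments can add reads from similar genes. Counts were tested with edgeR 4.0.16 (R 4.3.3): filterByExpr kept 12425 genes, TMM gave the scaling factors, and a quasi-likelihood fit over all 12 libraries gave 4 contrasts and their interaction, with Benjamini-Hochberg adjustment over all genes tested and a threshold of 0.05. The square root of the common dispersion was 0.132. CPM used TMM-scaled library sizes, and log2 CPM a prior count of 2. Gene positions came from GENCODE (GRCm38). The ADAMTS genes and all gene lists were chosen with earlier results of these data known. Genes were named by rule: all ADAMTS genes, Pdcd5, Vcan and, of each other list, the 3 highest by mean CPM and up to 2 with the largest change past the threshold per contrast; other list genes were added where a count was small. For likeness, the 3 genes outside the family with the highest r to the ADAMTS gene of widest span were taken, of which 1 is not reported here. Files held 23282 rows, of which 79 shared 35 symbols. Scripts were tested on simulated data. The other settings tried are given in the closing section.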

Additional observations from a re-analysis of the deposited data

How the results depend on the processing

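The comparisons were recomputed under 21 other settings, the interaction under 20. With TGF-β1, 6 ADAMTS genes passed in NC cells and 5 in siPDCD5 cells, against 6 to 7 and 5 to 5 with each library left out in turn. In siPDCD5 cells 4 passed where at least 10 counts were asked of every library, since Adamts4 was not tested there. In the same cells 6 passed without both libraries that stood apart. Without TGF-β1 the knockdown gave 2 (2 to 3 with a library left out, and 4 without both libraries that stood apart). With TGF-β1 it gave 2 (1 to 2 with a library left out, and 0 on the 6 libraries compared). The interaction gave 0 (0 to 0 with a library left out, 1 by DESeq2 and 3 without both libraries that stood apart). The cause of the other shifts was not tested. Of 827 values for single ADAMTS genes, 788 kept their direction and side of the threshold, 4 lost the call, 11 gained it and 24 changed sign. Each sign change was in a comparison where that gene passed no test. For the knockdown with TGF-β1, Adamts9 was at 0.0122 with upper-quartile factors, 0.0238 with quantile normalization, 0.00731 without a filter, 0.00712 on the 6 libraries and 0.00385 with the replicate block, and -0.21 to 0.18 with a library left out. Adamts4 was at -0.00872 with the replicate block and -0.13 to 0.18 with a library left out, and Adamts7 at -0.13 to 0.12. Adamts10 was at 0.00164 with quantile normalization and -0.26 to 0.10 with a library left out, and with TGF-β1 in NC cells at -0.10 to 0.26. The interaction of Adamts6 was 0.034 without both libraries that stood apart. Other named genes were recomputed only in comparisons where they had passed, so they could not gain a call. Of their 1233 values, 66 lost the call and none changed sign, which cannot be set against the ADAMTS values. Besides those given above, the lost calls were of Adam17, Furin, Timp2, Thbs1, Fn1, Col1a1 and B3glct. Between NC and NC + TGF-β1, deviations from the group mean correlated at 0.00742 to 0.166 for same-numbered libraries and -0.167 to 0.0576 for others. Between NC + TGF-β1 and siPDCD5 + TGF-β1 they correlated at -0.324 to -0.0364 and at -0.215 to 0.249. With 3 libraries a group these values cannot decide whether the numbers pair the libraries, which the labels do not say. With the replicate block, 6, 5, 2, 2 and 0 ADAMTS genes passed, and 1687, 1731, 301, 107 and 0 of all genes, against 1906, 2002, 427, 192 and 0 without it. In the knockdown without and with TGF-β1, all-gene calls moved to 671 and 436 with DESeq2, to between 167 and 667 and between 73 and 322 with a library left out, and with TGF-β1 to 44 on the 6 libraries compared. Without both libraries that stood apart the 5 comparisons gave 3663, 3139, 1146, 1062 and 200. Adamts4 was not tested where at least 10 counts were asked of every library. Among the selected ADAMTS genes that passed the filter, depth limits Adamts4 and Adamts6 most, with 618 and 317 counts over the 12 libraries. Adamts12 and Adamts15 were tested only without the filter and by DESeq2, and passed in neither.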
